A study of Danio rerio with 7 samples.

Results

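Hox genes encode homeodomain transcription factors that give cells their position along the body from hindbrain to tail. They lie in clusters, and the order of a gene in its cluster, given by its paralog number, matches the level of the body where it is switched on: low numbers in the hindbrain and the crest cells of the pharyngeal arches, middle numbers in the caudal hindbrain, the rostral spinal cord and the pectoral fin region, high numbers in the trunk, tail, fins and hindgut. Forebrain, eye and midbrain are largely free of Hox transcripts, so the Hox genes of a cut head report on its other parts, hindbrain and pharyngeal arches included. The set described here is every gene row of the deposited table whose symbol begins with hox, a cluster letter from a to d and a number, which gave 49 of 30421 rows, 14 of paralog numbers 1 to 4, 12 of 5 to 8 and 23 of 9 to 13. Zebrafish keep duplicated clusters from an extra genome duplication. In the gene order of the RefSeq assembly GRCz12tu, the 49 genes lie in 7 clusters on chromosomes 3, 9, 11, 12, 16, 19 and 23, and none lies on chromosome 14, where the design text places the lesion.

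The samples were pooled heads of zebrafish larvae at 5 days post fertilization, 3 libraries of wild type (WT) larvae and 3 of larvae labelled hm41 mutant, a line with a leaky blood-brain barrier. The labels do not give zygosity, the number of heads per pool or where the heads were cut, and they do not say that the libraries came from separate clutches, so p-values measure the spread between these libraries only. The libraries are named by their label numbers, WT 66, 67 and 68 and hm41 69, 70 and 71. The remaining sample of the series, a single-cell library, was not analysed here.

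Totals ran from 33776039 to 114604280 counts per library, but 8 rows took most of them and 1664899 (WT 67) to 4959770 (WT 66) counts were left for all other genes. WT 67 stood apart from the others on the principal component with 33.1% of the variance and had the lowest mean correlation with them (0.906, against 0.921 to 0.935), and hm41 69 stood apart on the component with 23.9%. Levels are given in CPM, counts per 1e6 of totals scaled by trimmed mean of M-values (TMM) factors. They are small because of the 8 rows. Counts were not divided by transcript length, so a level may be compared between libraries but not between genes. For spock1, the gene named in the design text, the log2 fold change was -0.38 ± 0.231 (SE, Benjamini-Hochberg adjusted p = 0.594 by the edgeR quasi-likelihood test).

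The heads held Hox transcripts of paralog numbers 1 to 4 and 5 to 8 in every library and very few of numbers 9 to 13. Which tissues they came from was not tested. Of the 14 genes of paralog numbers 1 to 4, all had at least 1 count somewhere, 12 had at least 1 in all 6 libraries and 6 had at least 10 in all 6. For the 12 genes of numbers 5 to 8 these counts were 12, 9 and 4. Of the 23 genes of numbers 9 to 13, 19 had a count somewhere, 2 were counted in all 6 libraries and 0 reached 10 counts in all 6. In that most posterior class, 17 genes had fewer than 20 counts over the 6 libraries together, and 4, hoxc10a, hoxc12a, hoxb13a and hoxc13a, had none, which allows up to 3 counts over the 6 libraries for each. Transcripts of these genes below that level were not detectable at this depth.

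**Figure D1:**
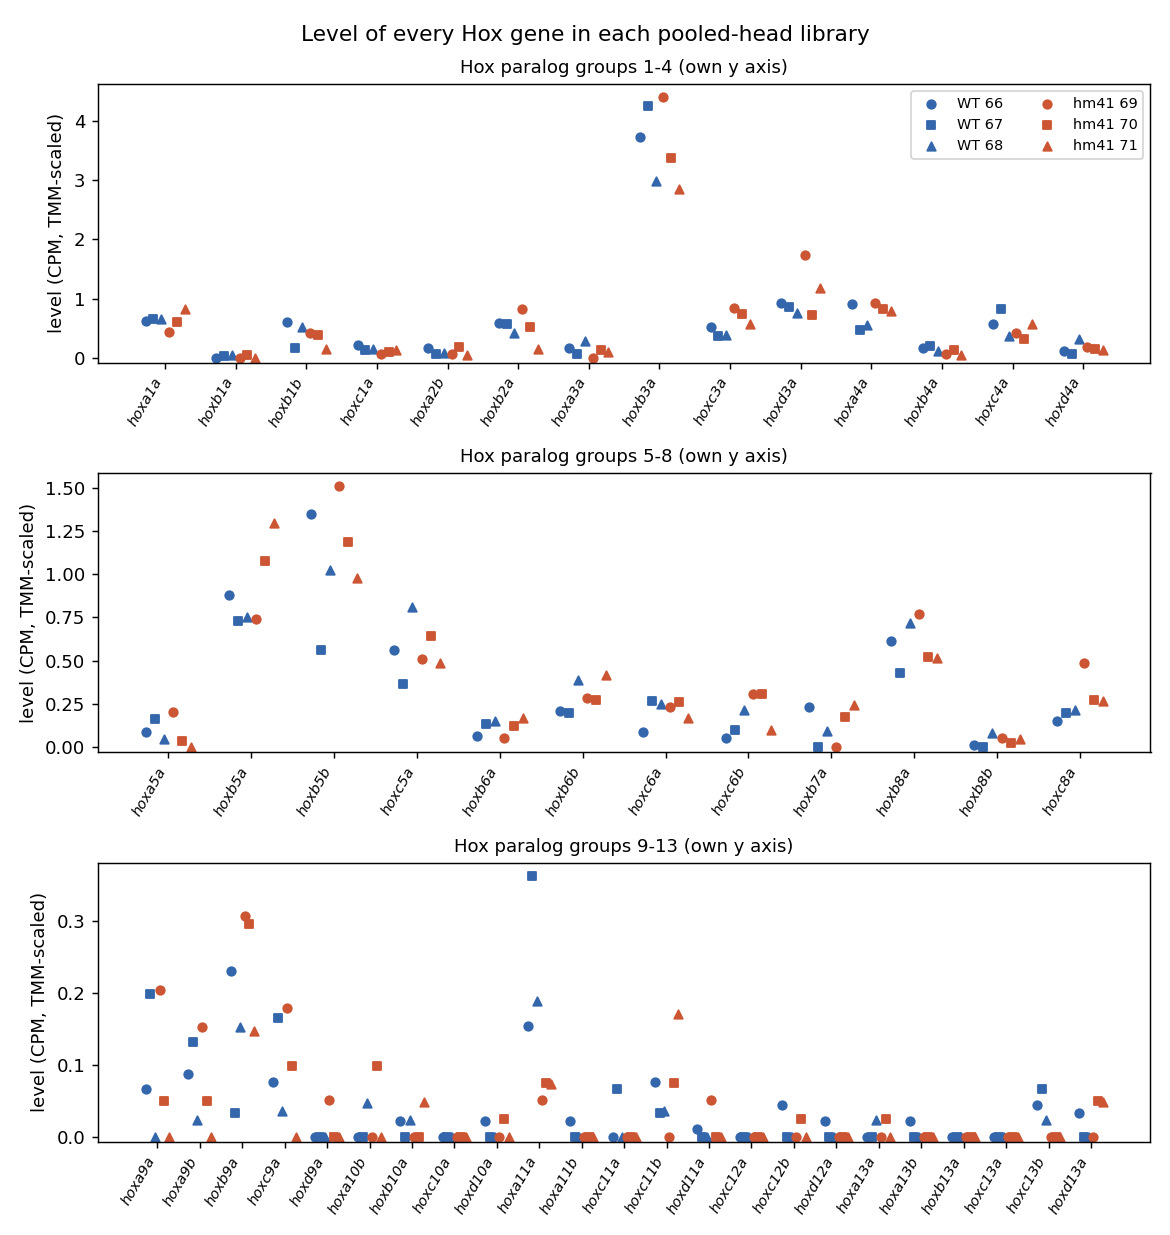
Level of each of the 49 Hox genes (y axis, CPM on TMM-scaled totals) in the 3 WT libraries (blue) and the 3 hm41 libraries (orange), ordered by paralog number, with a separate y axis for each panel. Values of hoxb3a lie between 2.86 and 4.42 CPM, whereas no value in the panel of numbers 9 to 13 exceeds 0.363 CPM, and WT and hm41 points intermingle for most genes.

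Summed over all 49 genes, the libraries held 391 (WT 67) to 1324 (WT 66) Hox counts. Genes of numbers 1 to 4 took 61.4% of the Hox counts of the 6 libraries together, those of 5 to 8 took 32.9% and those of 9 to 13 took 5.73%. Counts by paralog number were 450 for number 1, 226 for 2, 1900 for 3, 559 for 4, 1008 for 5, 291 for 6, 53 for 7, 327 for 8 and 157.29 for 9. For the numbers beyond 9 they were 22 for 10, 82.46 for 11, 8 for 12 and 23 for 13. These are sums of counts, set by gene number and transcript length as well as by level. By cluster, the Hox-ba cluster on chromosome 3 took 44.3% of the Hox counts, Hox-ca on chromosome 23 took 16.6%, Hox-bb on 12 took 13.7%, Hox-aa on 19 took 13.2% and Hox-da on 9 took 8.46%. The remaining clusters, Hox-cb on 11 and Hox-ab on 16, took 2.06% and 1.59%.

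The balance between anterior and posterior Hox counts varied among libraries of the same genotype. Genes of numbers 5 to 8 held 29.6% of the Hox counts in WT 66 (95% exact binomial interval 27.2 to 32.1), 24.3% in WT 67 (20.1 to 28.9) and 36.8% in WT 68 (33.9 to 39.7). In hm41 the shares were 31.2% in library 69 (27.6 to 34.9), 35.0% in 70 (32.2 to 37.8) and 37.0% in 71 (32.8 to 41.3). The WT range took in the hm41 values except that of hm41 71, just above it. The group means were 30.2% ± 6.25 in WT and 34.4% ± 2.92 in hm41 (SD, n = 3 each), a difference smaller than the SD of the WT libraries. Counting error is all that these intervals cover, and they are too narrow where a molecule gave more than 1 count, because without molecular identifiers a read cannot be taken for a separate molecule. Even numbers were over-represented among small counts, with 57.0% to 58.7% even among whole counts of 1 to 20 in each library and 87 of 127 among those of the Hox genes, and whether some molecules entered the counts as read pairs was not tested.

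For the most posterior class the share was 6.45% in WT 66 (95% exact binomial interval 5.16 to 7.88), 8.18% in WT 67 (5.67 to 11.4) and 4.31% in WT 68 (3.17 to 5.66). It was 5.99% in hm41 69 (4.34 to 8.19), 6.14% in hm41 70 (4.85 to 7.74) and 3.86% in hm41 71 (2.37 to 5.89). The groups overlapped, with means of 6.31% ± 1.94 in WT and 5.33% ± 1.27 in hm41 (SD, n = 3 each). WT 67, the library with the fewest counts outside the 8 rows, had both the highest share of this class and the lowest share of numbers 5 to 8. Genes of numbers 1 to 4 made up the rest, 58.9% (hm41 70 and WT 68) to 67.5% (WT 67).

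**Figure D2:**
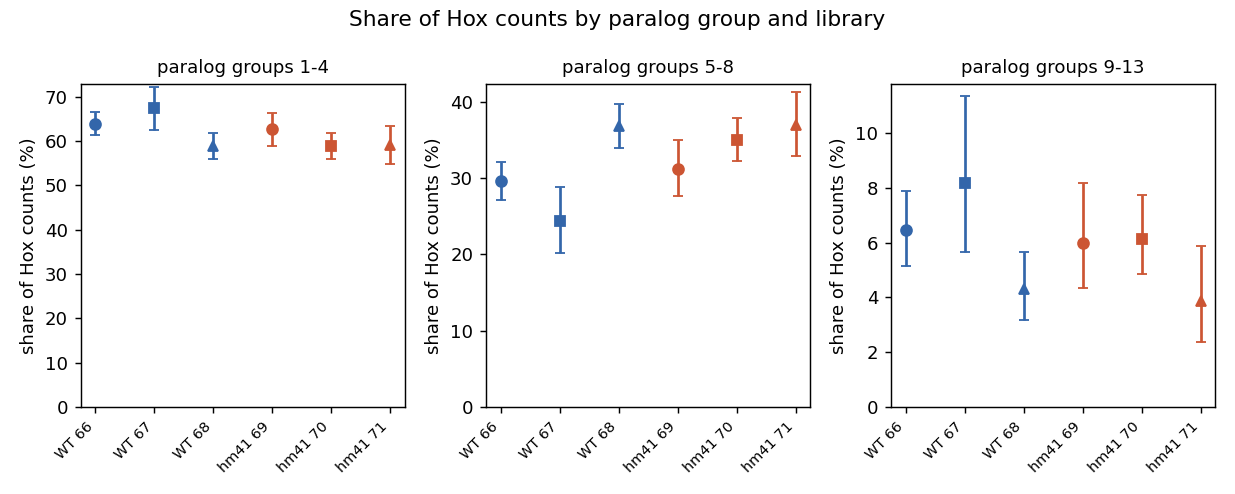
Share of Hox counts (y axis, percent) held by paralog numbers 1 to 4, 5 to 8 and 9 to 13 in each library (x axis), with 95% exact binomial intervals as bars. WT 67 is lowest for numbers 5 to 8 at 24.3% and highest for 9 to 13 at 8.18%, and the genotypes overlap in each panel.

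The summed Hox level was 14.5, 12.9 and 12.9 CPM in WT 66, 67 and 68 and 16.5, 14.0 and 12.7 CPM in hm41 69, 70 and 71. The highest and the lowest value were both hm41, and the means were 13.4 ± 0.934 CPM for WT and 14.4 ± 1.92 CPM for hm41 (SD, n = 3 each). Genes of numbers 1 to 4 summed to 8.53 ± 0.858 CPM in WT and 8.68 ± 1.47 CPM in hm41, and those of 9 to 13 to 0.847 ± 0.262 and 0.783 ± 0.264 CPM. For numbers 5 to 8 the sums were 4.30, 3.13 and 4.74 CPM in WT against 5.14, 4.89 and 4.69 CPM in hm41, means of 4.06 ± 0.829 and 4.90 ± 0.224 CPM (SD) and a log2 ratio of 0.27. That ratio was 0.12 without WT 67 and 0.40 without WT 68. A sum over members was chosen with earlier results known and carries no p. In bulk tissue, fewer cells of a type and less RNA per cell cannot be told apart.

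Between hm41 and WT heads no Hox gene was called. Of the 49 genes, 18 had enough counts to be tested, 8 of numbers 1 to 4, 9 of 5 to 8 and hoxb9a alone of 9 to 13, which is 36.7% of the Hox genes against 63.4% of all rows. None of the 18 passed the threshold (Benjamini-Hochberg adjusted p = 0.465 or more over 19275 genes by the edgeR quasi-likelihood test), where 0.0571% of all tested genes did, 0.0156% higher and 0.0415% lower. At an unadjusted p under 0.05 there was 1, hoxc3a, against 10.4% of all tested genes. With DESeq2 0 had that unadjusted p, and it gave no Hox gene an adjusted p, so it could call none. Log2 fold changes of hm41 over WT were positive for 11 and negative for 7 of the 18, from -0.52 (hoxb1b) to 0.95 (hoxc6b), with a median of 0.23 beside -0.02 for all tested genes. The genes were positive in 3 of 8 cases for numbers 1 to 4 (median -0.04) and in 7 of 9 for 5 to 8 (median 0.23), where 47.9% of all tested genes were positive. Neighbouring Hox genes share tissue and in places overlap in their annotated spans, so these counts describe the list only. The median for all 18 depended on which genes and libraries entered: it was 0.06 without WT 67, 0.06 without WT 66 and -0.02 when genes needed at least 10 counts in 3 libraries. The median for numbers 5 to 8 was 0.10 without WT 67 and 0.43 without WT 68. Both ends of the range moved too: hoxb1b was at -0.20 without hm41 71 and -0.81 without WT 67, and hoxc6b at 0.53 without WT 66 and 1.77 without WT 68.

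**Figure D3:**
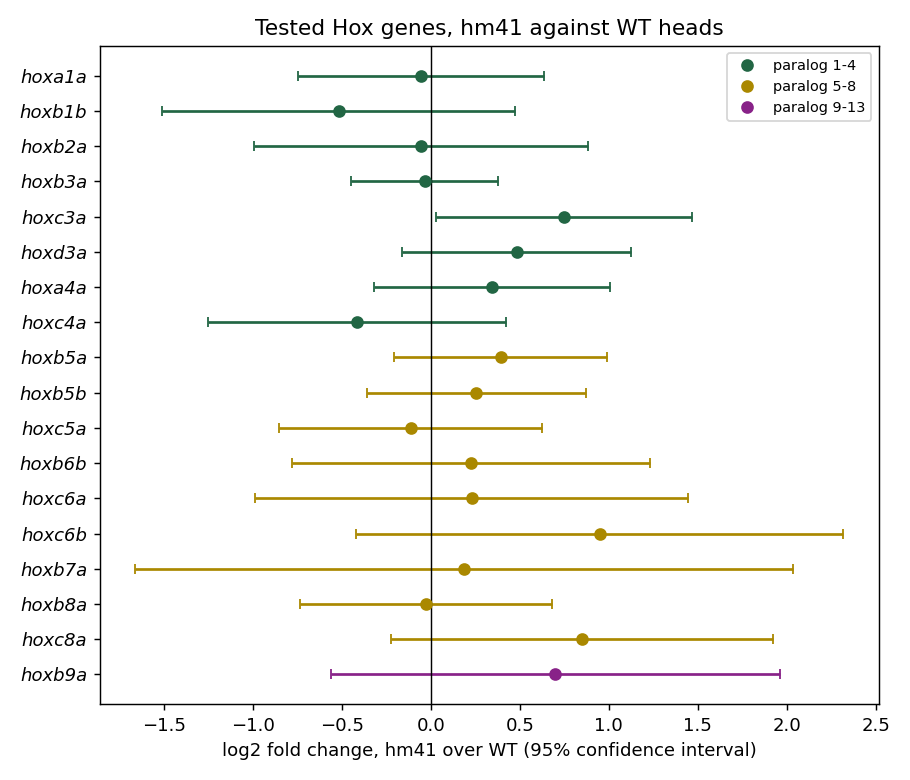
Log2 fold change of hm41 over WT (x axis) with its 95% confidence interval for the 18 tested Hox genes, ordered by paralog number from top to bottom and coloured by paralog class. The interval of hoxc3a, 0.03 to 1.46, is the one that leaves out 0 before adjustment, and the widest interval belongs to hoxb7a, with 53 counts in all.

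Among the hindbrain genes hoxb3a, known from the caudal rhombomeres, gave the most counts, 1289 or 25.2% of all Hox counts, and the tightest estimate. Its level was 3.74, 4.26 and 3.00 CPM in WT and 4.42, 3.38 and 2.86 CPM in hm41, with both extremes in hm41. Its log2 fold change came to -0.03 (interval -0.45 to 0.38 at 95% confidence), so the interval reaches from 0.733-fold to 1.30-fold. The sign turned without WT 67 (0.07) or hm41 71 (0.11) and with library totals alone (0.22), a scaling that moves the median of all genes from -0.02 to 0.20.

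Its paralogs in the third group, which in mice and fish pattern the third and more caudal arches, did not all move one way: hoxc3a and hoxd3a had higher means in hm41, and hoxa3a, too low to test, had a lower one (0.171 CPM in WT and 0.0737 CPM in hm41, from 55 counts in all). The level of hoxd3a was 0.932, 0.858 and 0.753 CPM in WT and 1.74, 0.728 and 1.17 CPM in hm41. In this gene hm41 69 and 71 lay above all WT libraries, hm41 69 the furthest, and hm41 70 lay below them. Its log2 fold change came to 0.48 (interval -0.16 to 1.12 at 95% confidence, adjusted p = 0.622 by edgeR) and 0.14 without hm41 69. For hoxc3a the level was 0.515, 0.363 and 0.376 CPM in WT and 0.843, 0.741 and 0.562 CPM in hm41, with every hm41 library above every WT library. Its log2 fold change came to 0.75 (interval 0.03 to 1.46 at 95% confidence, adjusted p = 0.465 by edgeR), from 0.56 to 1.01 over the alternatives tried. In the direction hm41 above WT, 2 of the 18 genes had groups that did not overlap, hoxc3a and hoxc8a, where 8.09% of all tested genes did, and 0 of the 18 in the other direction, where 8.44% did. In the GRCz12tu annotation the span of hoxc3a overlaps hoxc4a, hoxc5a, hoxc6a, hoxc8a and hoxc9a, that of hoxb3a overlaps hoxb4a, hoxb5a and hoxb6a, that of hoxd3a overlaps hoxd4a, that of hoxa3a overlaps hoxa4a and hoxa5a, and that of hoxb1b overlaps hoxb5b and hoxb6b. How the counting divided reads in such spans is not given in the sources used here, so these genes are not taken as independent of each other. Of the 49, only hoxa11a and hoxb9a had fractional counts, that is, reads shared with another row.

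The first group sits at the hindbrain's early segmentation. In hoxa1a the 3 WT values were close together at 0.625, 0.660 and 0.659 CPM, and hm41 spread around them at 0.434, 0.605 and 0.830 CPM (log2 fold change -0.05, 95% confidence interval -0.74 to 0.64). For hoxb1b, which acts with retinoic acid in early hindbrain patterning, the values were 0.603, 0.165 and 0.517 CPM in WT and 0.409, 0.383 and 0.146 CPM in hm41, overlapping, with a log2 fold change of -0.52 (95% confidence interval -1.51 to 0.47). Its duplicate hoxb1a, which marks the fourth rhombomere in the embryo, had 9 counts over the 6 libraries, none of them in WT 66, hm41 69 or hm41 71. In the second group, hoxb2a had 0.581, 0.561 and 0.412 CPM in WT and 0.818, 0.518 and 0.146 CPM in hm41, so its highest and lowest values were both hm41. The arch selector hoxa2b had 41 counts in all and was too low to test.

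The fourth group marks the border of hindbrain and spinal cord. For hoxa4a the level was 0.910, 0.462 and 0.553 CPM in WT and 0.920, 0.827 and 0.781 CPM in hm41, and WT 66 lay among the hm41 values (log2 fold change 0.34, 95% confidence interval -0.32 to 1.01). Its value without WT 66 was 0.71. For hoxc4a it was 0.570, 0.825 and 0.365 CPM in WT and 0.409, 0.321 and 0.562 CPM in hm41, which overlap (log2 fold change -0.41, 95% confidence interval -1.25 to 0.42). The untested members of numbers 1 to 4 had 9 to 62 counts in all, the lowest being hoxb1a and the highest hoxd4a. Each had a lower mean in hm41, by little for hoxa2b (0.0967 CPM in WT and 0.0950 CPM in hm41). In hoxc1a, with 51 counts, every hm41 library was lower, at 0.219, 0.132 and 0.141 CPM in WT and 0.0511, 0.0987 and 0.122 CPM in hm41. Without the low-count filter its log2 fold change was -0.85 ± 0.797 (SE, adjusted p = 0.798 by edgeR).

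The fifth group led the middle class. For hoxb5b, a retinoic acid target active in the lateral mesoderm of the fin and heart region, the level was 1.35, 0.561 and 1.02 CPM in WT and 1.51, 1.18 and 0.977 CPM in hm41. WT 67 was the lowest and the other libraries intermingled (log2 fold change 0.26, 95% confidence interval -0.36 to 0.87). Without WT 67 the value was 0.04, and without both WT 67 and hm41 69 it was -0.12. Its duplicate hoxb5a had 0.877, 0.726 and 0.753 CPM in WT and 0.741, 1.07 and 1.29 CPM in hm41, with hm41 70 and 71 above all WT libraries and hm41 69 among them (0.39, 95% confidence interval -0.20 to 0.99). The duplicates therefore differed in which libraries were high. For hoxc5a the level was 0.559, 0.363 and 0.811 CPM in WT and 0.511, 0.642 and 0.488 CPM in hm41, all within the WT range (log2 fold change -0.11).

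Groups 6 to 8, known in tetrapods for the identity of limb-level and thoracic spinal neurons, had lower counts. The level of hoxb6b was 0.208, 0.198 and 0.388 CPM in WT and 0.281, 0.272 and 0.415 CPM in hm41 (log2 fold change 0.23, 95% confidence interval -0.78 to 1.23). That of hoxb8a was 0.614, 0.429 and 0.717 CPM in WT and 0.767, 0.518 and 0.513 CPM in hm41 (-0.03, 95% confidence interval -0.73 to 0.68). In both genes the groups overlap. For hoxc8a the level was 0.153, 0.198 and 0.212 CPM in WT and 0.485, 0.272 and 0.269 CPM in hm41, from 90 counts in all, and every hm41 library lay above every WT library. Its log2 fold change came to 0.85 (interval -0.23 to 1.92 at 95% confidence, adjusted p = 0.598 by edgeR) and 0.54 without hm41 69. For hoxc6b the level was 0.0548, 0.0990 and 0.212 CPM in WT and 0.307, 0.309 and 0.0977 CPM in hm41, from 67 counts in all, so hm41 71 lay among the WT libraries and the others above them. For hoxc6a it was 0.0877, 0.264 and 0.247 CPM in WT and 0.230, 0.259 and 0.171 CPM in hm41, all within the WT range. The log2 fold changes of hoxc6a, hoxc6b and hoxb7a were 0.23, 0.95 and 0.19, with SEs of 0.582, 0.655 and 0.876, and hoxb7a had 0 counts in WT 67 and in hm41 69.

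In the posterior class hoxb9a, expressed in the trunk neural tube of the embryo, had 0.230, 0.0330 and 0.153 CPM in WT and 0.307, 0.296 and 0.146 CPM in hm41. The lowest value, in WT 67, rests on 1.00 count, and hm41 71 lay below WT 66 and 68. Its log2 fold change came to 0.70 (interval -0.56 to 1.96 at 95% confidence, adjusted p = 0.737 by edgeR), with 0.40 to 1.21 over the fits without 1 library in which it was tested. The next by counts, hoxa11a, a gene of fin and posterior mesoderm, had 14.07, 10.97 and 15.79 counts in WT and 1.97, 5.61 and 3.05 counts in hm41. In CPM these were 0.153, 0.363 and 0.188 in WT and 0.0511, 0.0741 and 0.0732 in hm41, so every hm41 library was lower. It did not pass the low-count filter and is named after its values were seen. Without the filter its log2 fold change was -1.69 ± 0.804 (SE, adjusted p = 0.501 by edgeR), and how many of its fractional counts are its own reads was not tested. Also named after its values were seen, hoxc13b had 4, 2 and 2 counts in WT and none in hm41, where 3 counts over the group would still be allowed. No other gene of numbers 10 to 13 exceeded 24 counts in all, and hoxa13a, hoxa13b and hoxd13a, the genes of fin and hindgut ends, had 4, 2 and 9.

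The level of Hox transcript was read beside lists of genes for regions of the head and trunk. For 26 regulators of forebrain, eye and midbrain, which mark the territory without Hox expression, the summed level was 23.3 ± 0.852 CPM for WT and 24.2 ± 2.54 CPM for hm41 (SD, n = 3 each). Hox counts per count of this list were 0.612, 0.578 and 0.540 in WT and 0.606, 0.604 and 0.565 in hm41, means of 0.576 ± 0.0360 and 0.592 ± 0.0230 (SD), and the groups overlapped. The genotypes thus differed in this ratio by less than the spread between libraries. In a ratio to 16 brainstem neuron genes, the groups did not overlap, by a narrow margin between WT 68 and hm41 69. Counts of Hox genes of numbers 1 to 4 per count of that list were 0.758, 0.943 and 0.698 in WT and 0.687, 0.564 and 0.619 in hm41, means of 0.800 ± 0.128 and 0.623 ± 0.0615 (SD), a ratio that carries no p because its lists were chosen with earlier results known. The brainstem list itself summed to 12.3, 9.24 and 10.9 CPM in WT and 15.0, 14.6 and 12.1 CPM in hm41, means of 10.8 ± 1.51 and 13.9 ± 1.57 CPM (SD), and hm41 71 lay just below WT 66. Of these sums the glycine transporter gene slc6a5 alone gave means of 5.47 ± 0.986 and 7.85 ± 2.05 CPM (SD). By counts slc6a5 gave 596 of 1118, 139 of 280 and 450 of 925 of the brainstem list in WT. In hm41 it gave 370 of 588, 692 of 1182 and 227 of 496. The separation of the ratio therefore rests in large part on 1 gene. The ratio without slc6a5 was not computed, so the separation cannot be assigned to the list as a whole. The library with the highest Hox level, hm41 69, was also highest for the forebrain, eye and midbrain list (27.1 CPM), for the brainstem list (15.0 CPM), for 14 genes of the homeodomain partners of Hox proteins (57.4 CPM) and for 24 Polycomb and Trithorax genes (92.9 CPM), and their part in its Hox level was not tested.

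Genes listed for tissue behind the head were present, with summed levels from 1.56 CPM (spinal and tail list, WT 68) to 161 CPM (gut list, hm41 71). The lists did not all move one way between the genotypes. Whether these genes are expressed only behind the head was not tested. A list of 12 regulators of spinal neurons and of the tail summed to 1.87 ± 0.345 CPM for WT and 1.79 ± 0.265 CPM for hm41 (SD, n = 3 each), from 66 to 164 counts a library. Of these, 2 could be tested, evx2 and en1b, with log2 fold changes of 0.31 and -0.28. The tail genes noto and msgn1 had 4 and 7 counts in all, and the caudal gene cdx4, from another list, had 4. For 8 pectoral fin genes the sums were 3.11 ± 0.567 and 2.68 ± 0.408 CPM, with 6 of 7 tested genes negative (median -0.16) and 0 at an unadjusted p under 0.05 by edgeR. That median was -0.34 without hm41 69, -0.27 without WT 67, -0.07 without WT 66, -0.05 without hm41 70 and 0.10 with library totals alone. For 10 genes of the pronephros, the larval kidney, the sums were 45.1 ± 6.02 and 43.1 ± 3.77 CPM, of which atp1a1a.4 alone gave means of 32.7 and 30.6 CPM. For 10 genes of gut, liver, pancreas and swim bladder the levels were 99.998, 102 and 102 CPM in WT and 106, 114 and 161 CPM in hm41, so every hm41 library was higher (means of 101 ± 1.23 and 127 ± 30.1 CPM, SD), and the highest, hm41 71, was the library with the lowest Hox level. Of 8 tested genes of this list 6 were positive and 2 negative (median 0.26, and 0.02 without hm41 71). Its smallest p belonged to vil1, a gene of the brush border of gut and kidney epithelium, at 28.9, 30.5 and 28.0 CPM in WT and 42.7, 33.8 and 44.0 CPM in hm41, without overlap. Its log2 fold change came to 0.46 ± 0.164 (SE, adjusted p = 0.308 by edgeR), and DESeq2 called it (0.47, adjusted p = 0.0449). In the same list sftpba went the other way, also without overlap. Its level was 0.241, 0.594 and 0.306 CPM in WT and 0.0511, 0.160 and 0.0977 CPM in hm41 (log2 fold change -1.68 ± 0.598, SE, adjusted p = 0.309 by edgeR). The list thus had 1 gene higher and 1 lower at an unadjusted p under 0.05, where 5.35% and 5.05% of all tested genes were. Genes of these lists were thus counted in every library. By level the gut list was highest in hm41 71 (161 CPM) and the posterior Hox class in WT 67 (1.06 CPM). By raw counts, which follow depth, the gut list was highest in hm41 70 (9207), with 9122 in WT 66, and the posterior class in WT 66 (85).

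**Figure D4:**
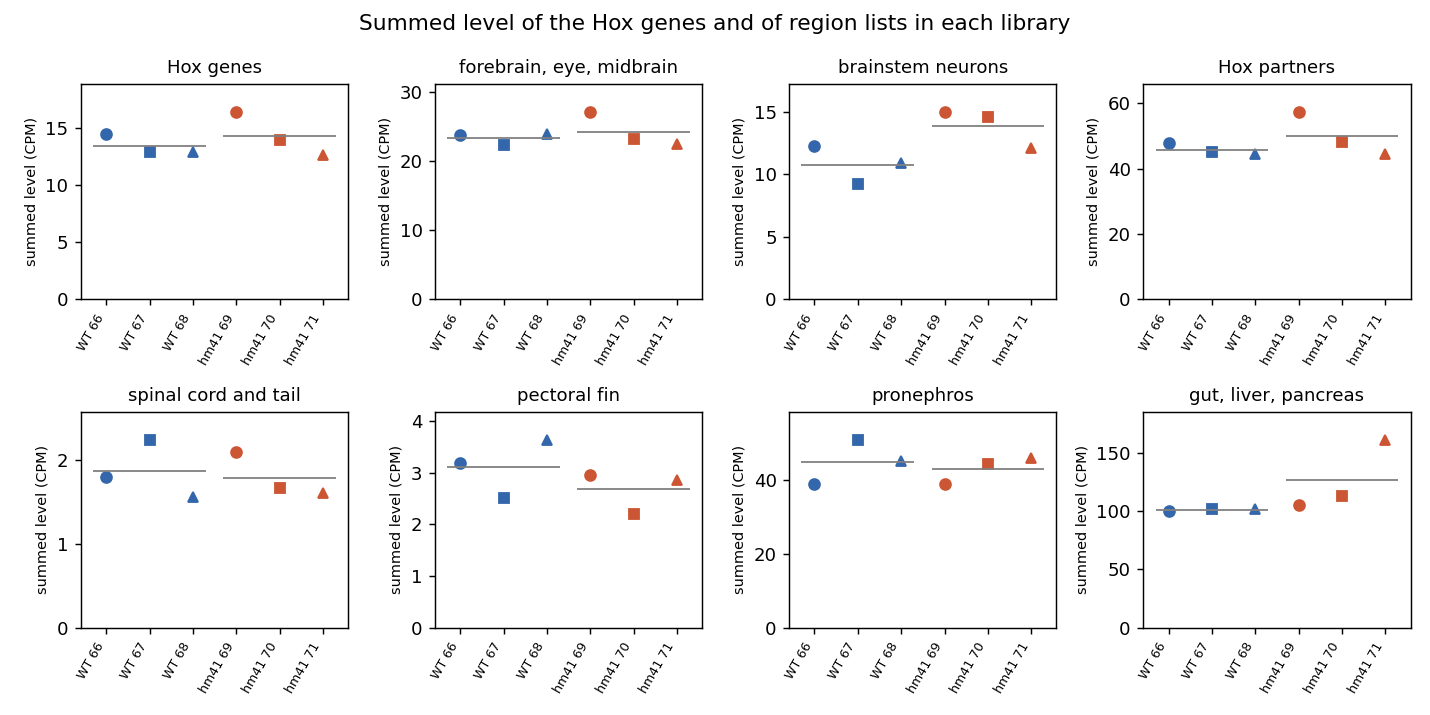
Summed level (y axis, CPM, starting at 0) of the 49 Hox genes and of 7 lists of region or partner genes in each library, with grey lines at the mean of each genotype (n = 3). Among the panels, hm41 69 is highest for Hox genes at 16.5 CPM, for forebrain, eye and midbrain at 27.1 CPM, for brainstem neurons and for Hox partners, whereas hm41 71 is highest for gut, liver and pancreas at 161 CPM.

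Genes that act with or upstream of Hox genes gave 0 calls as well, against 0.0571% of all tested genes. Of 14 tested genes of the Pbx, Meis and Prep families, which bind DNA together with Hox proteins, 9 were positive and 5 negative (median 0.12), and 2 had an unadjusted p under 0.05 by edgeR, both higher in hm41, where 5.35% of all tested genes were. The median was 0.01 without hm41 69, 0.18 without WT 67 and 0.27 without hm41 71. For meis2b the level was 5.14, 3.17 and 4.77 CPM in WT and 7.18, 6.74 and 5.71 CPM in hm41, with no overlap (log2 fold change 0.57 ± 0.184, SE, adjusted p = 0.253). For pknox1.2, a Prep gene, it was 2.93, 2.84 and 2.42 CPM in WT and 3.22, 3.83 and 3.66 CPM in hm41, also without overlap (0.39 ± 0.180, adjusted p = 0.462). Neither passed the threshold. Of the 14 genes, 3 had groups without overlap with hm41 above. The groups of 2, meis1b (-0.28) and meis3 (-0.30), did not overlap with hm41 below. Over all tested genes 16.5% had groups without overlap, 8.09% with hm41 above and 8.44% with hm41 below.

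Retinoic acid sets the anterior borders of Hox expression. Of 23 tested genes for its synthesis, breakdown, binding and receptors, 9 were positive and 14 negative (median -0.20), with 2 at an unadjusted p under 0.05 by edgeR, both lower in hm41, where 5.05% of all tested genes were. The degrading enzyme gene cyp26c1 had 1.53, 1.09 and 1.78 CPM in WT and 1.099, 0.9504 and 0.855 CPM in hm41, where hm41 69 just overlapped WT 67 (log2 fold change -0.63 ± 0.256, SE, adjusted p = 0.393). The binding protein gene crabp1a had 0.515, 0.891 and 0.953 CPM in WT and 0.332, 0.346 and 0.610 CPM in hm41 (-0.87 ± 0.372, adjusted p = 0.421). The retinoic acid list had a median of -0.37 without WT 66 and -0.05 without WT 68.

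Of 11 tested regulators upstream of Hox genes, 7 were positive and 4 negative (median 0.20, with 0.13 without hm41 69 and 0.41 without WT 66). At an unadjusted p under 0.05 by edgeR there was 1, gdf11, a secreted signal, higher in hm41, where 5.35% of all tested genes were. It had 0.504, 0.396 and 0.470 CPM in WT and 0.818, 0.728 and 0.977 CPM in hm41, every hm41 library being higher (log2 fold change 0.84 ± 0.319, SE, adjusted p = 0.347). Of 24 tested Polycomb and Trithorax genes, which keep Hox clusters silent or active, 14 were positive and 10 negative (median 0.04). The core Polycomb subunit eed had 0.998, 0.660 and 0.859 CPM in WT and 0.383, 0.481 and 0.415 CPM in hm41, every hm41 library being lower (-0.98 ± 0.324, adjusted p = 0.260). It was the 1 gene of this list at an unadjusted p under 0.05, where 5.05% of all tested genes were lower. Groups did not overlap for 3 genes with hm41 above and 3 with hm41 below, where 8.09% and 8.44% of all tested genes did not. Of 10 tested brainstem neuron genes 7 were positive and 3 negative (median 0.26, with 0.17 without hm41 71 and 0.46 without WT 66). The 1 at an unadjusted p under 0.05 was slc6a5, higher in hm41, where 5.35% of all tested genes were. This glycine transporter gene of inhibitory neurons had 6.53, 4.59 and 5.29 CPM in WT and 9.45, 8.54 and 5.54 CPM in hm41, which overlap (log2 fold change 0.51 ± 0.196, SE, adjusted p = 0.359 by edgeR). Of 22 tested forebrain, eye and midbrain genes 13 were positive and 9 negative (median 0.04).

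The genes beside the Hox clusters were compared with the clusters themselves. The 3 nearest tested genes on each side of each cluster in GRCz12tu gave 42 genes. Log2 fold changes were positive for 30 and negative for 12 (median 0.22), where 47.9% of all tested genes were positive. At an unadjusted p under 0.05 by edgeR there were 5, all higher in hm41, where 5.35% of all tested genes were. Groups did not overlap for 7 genes with hm41 above and 1 with hm41 below, where 8.09% and 8.44% of all tested genes did not. The smallest p belonged to jazf1b, at 2.50, 2.57 and 2.32 CPM in WT and 4.11, 3.79 and 3.47 CPM in hm41, without overlap (log2 fold change 0.63 ± 0.178, SE, adjusted p = 0.202). Its duplicate jazf1a, beside the Hox-aa cluster, had 1.58, 1.78 and 1.38 CPM in WT and 2.12, 2.15 and 2.81 CPM in hm41 (0.59 ± 0.216, adjusted p = 0.331). Also at an unadjusted p under 0.05 were atf2, cbx3b and cbx1a, with log2 fold changes of 0.87, 0.44 and 0.43. Their adjusted p by edgeR was 0.328, 0.370 and 0.466. In the Hox-aa cluster the tested genes hoxa1a and hoxa4a had log2 fold changes of -0.05 and 0.34, and no gene of Hox-ab, the cluster beside jazf1b, could be tested. The neighbours rarga, rargb and evx2 are also in other lists used here. The microRNA genes of the clusters, 10 rows of the mir10 and mir196 families, were at 0 in all 6 libraries, in a total RNA preparation that the labels do not describe as one for small RNA.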

How the data were processed

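The authors deposited 1 table of expected counts, which are estimated reads per gene without scaling, covering 30421 gene rows and 6 bulk libraries of total RNA. Per the submitters' processing notes, RSEM, TopHat, Bowtie2 and the build GRCz11 were used, with no role or version stated. The strand setting is not given in the sources used here. Values were rounded and tested with edgeR 4.0.16 in R 4.3.3 (quasi-likelihood F-test, robust, TMM, filterByExpr, no covariate, two-sided, Benjamini-Hochberg over 19275 genes, threshold 0.05). SEs are the fold change over the root of F. Alternatives were DESeq2 1.42.0, other scalings and filters, libraries left out, and a term for the row LOC110438492, whose counts were at most 6 in WT 66, WT 67 and hm41 69 and at least 2589780 in the others. The steps were tested on simulated data. Members and lists were chosen with earlier results of these data known. A gene first held in the list of spinal regulators was left out of it afterwards and is not reported here. Symbols were matched directly or through synonyms in the RefSeq table of GRCz12tu, another build than that of the authors. It was used for names, chromosomes, neighbours and overlaps of gene spans only, and those spans may differ from the ones the authors counted in. Full values are given for the 5 members of highest mean level for numbers 1 to 4 and for 5 to 8, tested members of 9 to 13, members with an unadjusted p under 0.05 and up to 4 genes of each other list by p. For the neighbours atf2 and cbx3b only the fold change and adjusted p are given. Values of the other tested members, hoxa11a, hoxa3a, hoxc1a, hoxa2b and hoxc13b are given outside that rule, a choice made after they were seen.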

Additional observations from a re-analysis of the deposited data

How the results depend on the processing

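The count of called Hox genes was 0 under each alternative run (DESeq2, 2 other scalings, removal of the 8 most abundant rows, 2 other filters, the LOC110438492 term, 1 library left out, WT 67 and hm41 69 both left out), with 0 to 3 at an unadjusted p under 0.05. For DESeq2 that 0 was fixed in advance, because it gave no tested Hox gene an adjusted p. The count over all genes was 11 and became 47 with library totals alone, 131 with no low-count filter, 140 with DESeq2, 19 with the LOC110438492 term and 6 to 44 with 1 library left out. Among the other lists 1 gene was called with DESeq2 (vil1, 0.47) and 0 to 1 with 1 library left out (try, the trypsin row, without hm41 69). DESeq2 gave some genes of these lists no adjusted p either, so it could not call them. Among them was jazf1b, whose unadjusted p by DESeq2 (0.00233) was below that of vil1 (0.00282). The Hox median of 0.23 became 0.42 with library totals alone, 0.020 with no filter, -0.024 with at least 10 counts in 3 libraries and 0.056 to 0.25 with 1 library left out. The median of numbers 1 to 4 became 0.23 with library totals alone and -0.36 to 0.029 with 1 library left out. That of 5 to 8 (0.23) became 0.44 with library totals alone and 0.099 to 0.43 with 1 library left out. That of 9 to 13 became 0.13 with no filter (19 genes), -0.48 with at least 10 counts (2 genes) and -0.49 to 1.21 with 1 library left out, and could not be had without hm41 70. Of the 2 genes behind the -0.48, hoxa11a reached 10 counts in the WT libraries only (14.07, 10.97 and 15.79). It thus entered that filter through the group where it was high, and the sign of the -0.48 is not read as a result. Summed levels (log2 of hm41 over WT) moved with library totals alone, to 0.34 for all Hox genes and 0.28 for numbers 1 to 4. With 1 library left out the sum of 9 to 13 ranged from -0.34 to 0.14. Members counted in all 6 libraries were 23 at 1 count and 10 at 10 counts. Signs of uncalled genes turned with library totals alone for hoxa1a (0.15), hoxb2a (0.23), hoxb3a (0.22), hoxc5a (0.079) and hoxb8a (0.19), with the LOC110438492 term for hoxb2a (0.16), hoxb3a (0.11) and hoxb7a (-0.26), and without WT 67 and hm41 69 for hoxa1a (0.13) and hoxb5b (-0.12). With 1 library left out the ranges that cross 0 were -0.27 to 0.13 (hoxa1a), -0.52 to 0.36 (hoxb2a), -0.21 to 0.11 (hoxb3a), -0.28 to 0.70 (hoxb7a), -0.22 to 0.14 (hoxb8a), -0.30 to 0.20 (hoxc5a) and -0.18 to 0.52 (hoxc6a). Over all alternatives the medians ranged from 0.16 to 0.49 (brainstem), -0.35 to 0.097 (pectoral fin), -0.0076 to 0.36 (Hox partners), 0.070 to 0.41 (upstream regulators) and 0.018 to 0.47 (gut). The causes were not tested. Sums per length were not run, since no transcript lengths were used here. No paired analysis was possible because the libraries share no replicate number.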
